A study of Mus musculus with 21 samples.

Results

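The cells described here are the Ccl5-high cells of a library of naive mouse CD8 T cells, taken before any activation. Ccl5 encodes the chemokine RANTES, and a cell was called Ccl5-high when it held at least 3 Ccl5 UMIs (unique molecular identifiers, random tags that each mark 1 captured RNA molecule). Of the 4777 cells of that library, 419 met this rule, which is 8.77% (7.98 to 9.61, exact Clopper-Pearson 95% interval). They were set against cells of the same library with 0 Ccl5 UMIs, of which there were 4208. A further 116 cells held 1 Ccl5 UMI and 34 held 2, and these 150 cells were in neither group. The whole series held 106456 cells in 21 libraries.

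Memory-phenotype CD8 T cells, which include those called virtual memory cells, are found in mice that have met no foreign antigen. They are known for surface CD44 and CD122, the beta chain shared by the IL-2 and IL-15 receptors, for the T-box transcription factors Eomesodermin and T-bet, and for dependence on IL-15. Stored Ccl5 transcripts are a known feature of memory CD8 T cells, which can secrete the chemokine soon after stimulation, and naive CD8 T cells are known instead for lymph node homing receptors and for the factors TCF-1 and LEF-1.

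RNA was measured in single cells of the OT1 line, mice with a transgenic T cell receptor for an ovalbumin peptide. The naive library was untreated and taken on day 0. The other 20 libraries were cultures stimulated by anti-CD3 and anti-CD28 beads. They were grown without cytokine (days 3 and 5), or with IL-2, IL-15 or IL-2v, a mutant IL-2 per the labels, at 5 or 50 IU/mL (days 3, 5 and 10). Each condition had 1 library, so there was no replicate and no test, and the intervals given here cover counting error only. The age and number of the mice and the way the naive cells were isolated are not given in the sources used here. The treatment labels of 6 libraries name other interleukins than their titles, which were followed.

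The naive library held 18468030 UMIs, with a median of 3799 UMIs per cell (1010 to 12644), and the other libraries held 10590998 to 32648496 UMIs. It shared between 1 and 12 cell barcodes with each other library. For the main comparison the cells were matched on depth: each Ccl5-high cell was given up to 5 cells with 0 Ccl5 UMIs whose total was within 10%, which left 1935 matched cells. Their median was 3652 UMIs against 3763 in the Ccl5-high cells with Ccl5 left out, and 1404 genes were seen per matched cell against 1493. Mitochondrial genes took a median of 4.09% of UMIs in matched and 4.26% in Ccl5-high cells, and ribosomal protein genes took 34.7% and 31.2% of the summed UMIs.

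Ccl5 itself chose the cells, so its values are a description. Ccl5-high cells held a median of 24 Ccl5 UMIs (quartiles 10 and 52, highest 306), and 98.9% of all Ccl5 UMIs of the library lay in them. Ccl5 (ENSMUSG00000035042.2) lies at chr11:83525778-83530518 on the minus strand in GENCODE vM21 (GRCm38). It was left out of the comparison of genes and of its totals.

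The label of these cells was checked against the other markers given for them, none of which the rule used. Cd44, the hyaluronan receptor that marks antigen-experienced and memory-phenotype cells, stood at 101 CPM (counts scaled to a common total of summed UMIs; exact Poisson 95% interval 86.6 to 118) in Ccl5-high cells and at 19 CPM (16.0 to 22.4) in matched cells. Il2rb, the beta chain of the IL-2 and IL-15 receptors, stood at 368 CPM (339 to 398) and 63.8 CPM (58.2 to 69.7). Eomes, the T-box factor Eomesodermin, stood at 76.9 CPM (64.2 to 91.3) and 21.8 CPM (18.6 to 25.4). All 3 markers were higher in the Ccl5-high cells, with ratios of 5.33 (4.24 to 6.71) for Cd44, 5.76 for Il2rb and 3.53 for Eomes. Their intervals, which cover counting error only, lay well apart. The markers were proposed with earlier results of these data known, so their values are a description. In the same annotation Cd44 (ENSMUSG00000005087.17) lies at chr2:102811141-102901665, Il2rb (ENSMUSG00000068227.9) at chr15:78479256-78495271 and Eomes (ENSMUSG00000032446.14) at chr9:118478212-118486132.

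Differences between the groups were taken as log2 of the ratio of (CPM + 1), a scale that understates the difference of low genes. A gene entered when it reached 20 CPM in either group and 20 UMIs over both. Of 5962 such genes, 206 (3.46%) were higher in Ccl5-high cells by 2-fold or more and 70 (1.17%) were lower by as much, and the median over all of them was 0.04. A gene that reached 20 CPM only in the Ccl5-high cells had to stand higher there, which applies to 135 of the 206. In all, 479 of the 5962 genes reached it only in the Ccl5-high cells. Another 306 reached it only in the matched cells and had to stand lower. How many of the 70 lower genes were among these 306 is not given here. The 5483 genes that reached 20 CPM in the matched cells held 71 of the 206 higher genes and all 70 lower ones. Of the 12 genes of the memory phenotype list, 9 stood at least 2-fold higher and none lower, with a median log2 difference of 2.14. Of the 9 list genes that reached 20 CPM in the matched cells, 6 were at least 2-fold higher. The other 3, Cd44, Tbx21 and Il18rap, reached it only in the Ccl5-high cells and had to stand higher there. The list was drawn up with earlier results of these data known.

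Besides the 3 markers, Cxcr3, the chemokine receptor that guides effector and memory T cells to inflamed tissue, stood at 183 CPM (164 to 205.2) against 22.7 CPM (19.4 to 26.4), a log2 difference of 2.96. Ly6c2, a surface protein of memory CD8 T cells, stood at 908 CPM (863 to 955) against 133 CPM (125 to 141), a log2 difference of 2.77. Tbx21, which encodes T-bet, stood at 60.2 CPM (49.0 to 73.1) against 3.06 CPM (1.94 to 4.59), or 19.7-fold higher. For each of these genes the intervals of the groups were far apart. Tbx21 reached 20 CPM only in the Ccl5-high cells, so it had to stand higher there. Ly6c2 has a near-identical neighbour, Ly6c1, and the split of reads between them is uncertain. Ly6c1, named after its values were seen, stood at 7.15 CPM against 23.8 CPM.

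The receptor for IL-18, a cytokine that activates memory T cells without antigen, was higher in both chains. Il18r1 stood at 189 CPM (169 to 211) against 49.3 CPM (44.4 to 54.6), and Il18rap at 117 CPM (101 to 134) against 7.44 CPM (5.62 to 9.66). Of the 2 chains, Il18rap reached 20 CPM only in the Ccl5-high cells and had to stand higher there. Itgb1, the integrin beta 1 chain CD29, stood at 256 CPM (232 to 281) against 73.5 CPM (67.5 to 79.9). The remaining 3 genes of the list were less than 2-fold apart. Ly6a, which encodes Sca-1, had a log2 difference of 0.58 and Spn, which encodes CD43, of 0.31. Cd27, a costimulatory receptor that naive and memory cells both carry, stood at 276 CPM (251 to 302) against 318 CPM (305 to 331), a log2 difference of −0.20.

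Of the 21 genes of the naive phenotype list, 0 were at least 2-fold higher in Ccl5-high cells and 10 at least 2-fold lower, with a median of −0.94. Of the 10, 1 (Sox4) reached 20 CPM only in the matched cells and had to stand lower. Ccr7, the receptor for the chemokines that draw T cells into lymph nodes, stood at 84.0 CPM (70.7 to 99.1) against 257 CPM (246 to 269), a log2 difference of −1.60. S1pr1, the receptor for exit from lymph nodes, stood at 330.1 CPM against 459 CPM, and Klf2, a factor that controls S1pr1, at 904 CPM against 875 CPM.

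Among the naive transcription factors, Lef1, which encodes LEF-1, stood at 196 CPM against 489 CPM, a log2 difference of −1.31. Tcf7, which encodes its partner TCF-1, stood at 379 CPM against 494 CPM, a log2 difference of only −0.38. Bach2, a repressor of effector genes, had a log2 difference of −1.43, Sox4 of −1.50 and Satb1, a chromatin organiser, of −0.85. Sox4 reached 20 CPM only in the matched cells, so it had to stand lower. Its difference ran from −2.01 to −0.87 across the alternative settings. Where the matched level reached 50 CPM, the largest negative differences were those of Igfbp4 (23.8 CPM against 138 CPM, log2 −2.49), an insulin-like growth factor binding protein, and Ccr9 (31.0 CPM against 160.2 CPM, log2 −2.33), the gut-homing chemokine receptor. Dapl1, a transcript of naive T cells, followed at 141 CPM against 628 CPM (log2 −2.14), then Ramp1 (log2 −1.94), a receptor activity-modifying protein, Rgcc (−1.56), Als2cl (−1.53) and Atp1b1 (−1.38). Tmem108, Rapgef4, Rflnb and Actn1 were also among the 15 genes with the lowest differences, at log2 −1.31, −1.30, −1.26 and −1.24.

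**Figure D1:**
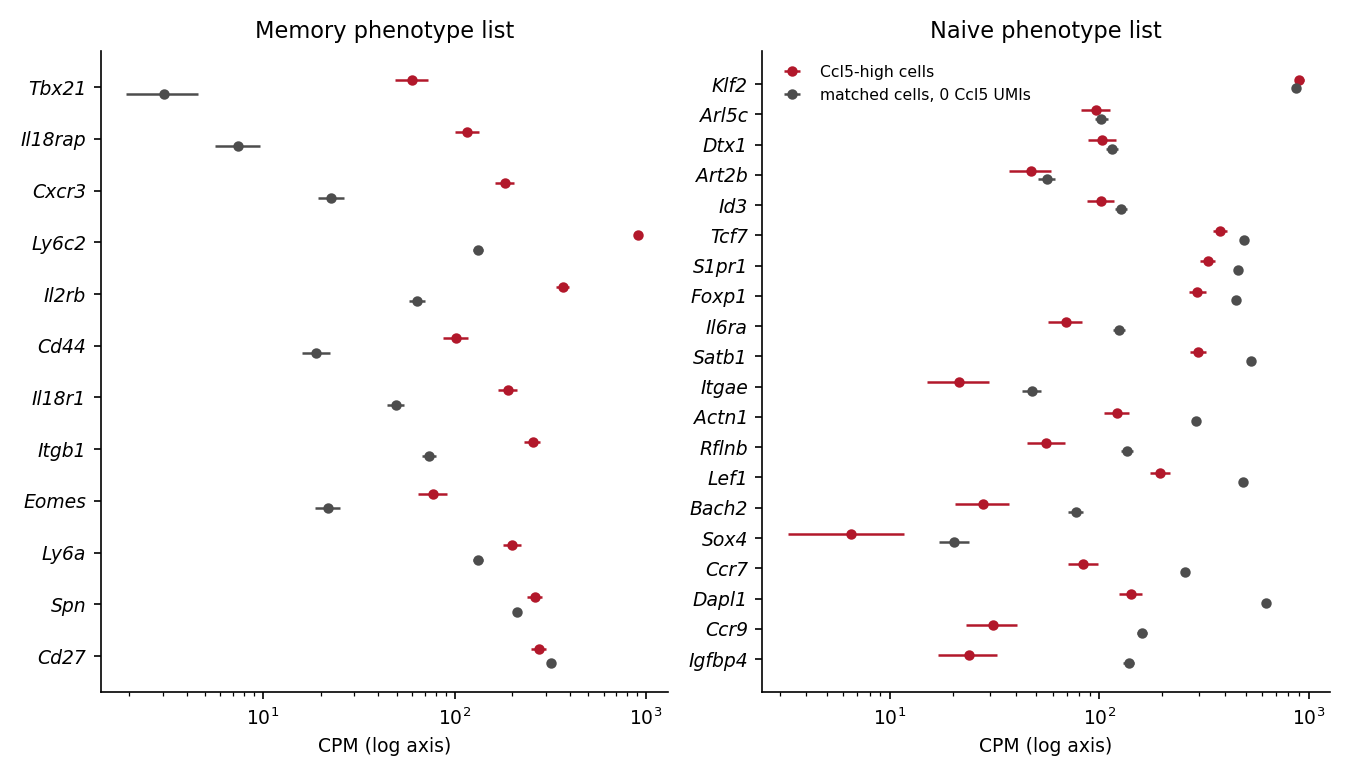
Summed level (CPM, log axis) of the memory phenotype genes (left) and 20 naive phenotype genes (right) in 419 Ccl5-high cells (red) and 1935 depth-matched cells with 0 Ccl5 UMIs (grey) of the naive library. Bars are exact Poisson 95% intervals. In the left panel 9 of 12 genes lie at least 2-fold higher in red, from Tbx21 down to Eomes, and in the right panel 10 lie at least 2-fold lower, with Klf2 at nearly the same level in both groups.

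The genes of cytotoxic granules, which kill target cells, stood far apart between the groups: of 14, 12 were at least 2-fold higher and none lower, with a median of 1.53. Of these 12, 7 reached 20 CPM only in the Ccl5-high cells, and of the 7 list genes that reached it in matched cells 5 were higher. Gzma, the tryptase granzyme A, stood at 325 CPM (299 to 354) against 3.19 CPM (2.04 to 4.74), the largest log2 difference of the named genes at 6.28. Gzmm, granzyme M, stood at 112 CPM (96.6 to 129) against 0.797 CPM (0.293 to 1.74), a log2 difference of 5.97. Gzmb, granzyme B, stood at 63.2 CPM against 0.797 CPM (log2 5.16). Gzmk, granzyme K, stood at 38.1 CPM against 1 UMI in all matched cells, a ratio of 287 with a counting interval of 49.7 to 11510. These granzymes were near 0 in the matched cells, whereas several other granule genes were present in both groups. Nkg7, a granule membrane protein, stood at 1083 CPM (1033 to 1133) against 417 CPM (403 to 432), and Prf1, the pore-forming perforin, at 95.3 CPM against 28.8 CPM. Ctsw, cathepsin W, had a log2 difference of 1.25, and Cst7, cystatin F, of 1.36. Fasl, the ligand of the death receptor Fas, was near 0 in the matched cells like the granzymes, at 24.4 CPM against 0.531 CPM. Srgn, the granule proteoglycan serglycin, and Lamp1, a lysosome membrane protein, were less than 2-fold apart (log2 0.47 and 0.15).

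T-bet and Eomesodermin bind the T-box motif, whose core is GGTGTGA, so the promoters of the granule genes were searched for these letters on either strand (reverse complement TCACACC). The window ran from 250 bases before to 50 bases after the transcription start, 300 bases, in RefSeq's promoters of build GRCm38.p6. The motif was found in 3 of the 13 granule genes in the promoter table. Gzma, Gzmb, Prf1 and Fasl, which were also at least 2-fold higher in the Ccl5-high cells, held none. Tbx21, Gzmk and Gzmm reached 20 CPM only in those cells and had to stand higher there. Whether the factors act on these genes was not tested. The promoters of Nkg7, Gzmk and Gzmm are shown as those with a match. Each is printed 5′ to 3′ along the gene's strand, with the motif in capitals.

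Nkg7 (chr7:43436888-43437187, plus strand): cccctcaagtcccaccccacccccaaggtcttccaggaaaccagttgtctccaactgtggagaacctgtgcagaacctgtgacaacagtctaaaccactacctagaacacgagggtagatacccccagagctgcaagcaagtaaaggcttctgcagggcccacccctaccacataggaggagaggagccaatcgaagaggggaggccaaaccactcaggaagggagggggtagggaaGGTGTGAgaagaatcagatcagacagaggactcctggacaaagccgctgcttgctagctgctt

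Gzmk (chr13:113180916-113181215, minus strand): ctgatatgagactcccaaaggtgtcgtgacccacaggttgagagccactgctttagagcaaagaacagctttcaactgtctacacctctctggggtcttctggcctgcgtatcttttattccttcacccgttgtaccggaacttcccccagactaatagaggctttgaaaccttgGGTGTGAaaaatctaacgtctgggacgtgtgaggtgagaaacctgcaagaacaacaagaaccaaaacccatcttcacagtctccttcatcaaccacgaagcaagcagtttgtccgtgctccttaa

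Gzmm (chr10:79693576-79693875, plus strand): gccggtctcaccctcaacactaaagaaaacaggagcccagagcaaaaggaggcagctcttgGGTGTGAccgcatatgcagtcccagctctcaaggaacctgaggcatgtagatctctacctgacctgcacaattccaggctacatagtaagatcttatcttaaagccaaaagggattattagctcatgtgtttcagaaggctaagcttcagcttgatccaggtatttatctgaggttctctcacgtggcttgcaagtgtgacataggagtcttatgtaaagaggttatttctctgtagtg

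The match begins 13 bases before the start in Nkg7, 75 before it in Gzmk and 189 before it in the second of the promoters listed for Gzmm. The other Gzmm promoter, upstream at chr10:79688770-79689069, held none. The motif was present for 191 of the 4820 tested genes in the table (3.96%) and for 1244 of all its 27025 genes (4.60%). It was present for 14 of the 160 genes at least 2-fold higher that were in the table (8.75%) and for 2 of the 55 at least 2-fold lower (3.64%). None of the 10 memory phenotype genes in the table and none of the 16 naive phenotype genes held it in this window. A match of letters is a description and does not show binding.

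Killer lectin-like receptors, shared with natural killer (NK) cells, passed the filter for 9 of 14 genes. In 8 of them it was passed through the Ccl5-high cells alone, so that these 8 had to stand higher there, and their values are a description. Klrk1, which encodes the activating receptor NKG2D, stood at 163 CPM (144 to 184) against 3.85 CPM (2.58 to 5.53), a log2 difference of 5.08. Klrc1, which encodes the inhibitory NKG2A, stood at 65.5 CPM against 1.06 CPM and Klrc2, which encodes NKG2C, at 75.7 CPM against 1.06 CPM. Klre1 stood at 66.7 CPM against 0.797 CPM, and Klrg1, an inhibitory receptor of effector cells, at 32.8 CPM against 1.06 CPM. Klrd1, which encodes CD94, the partner chain of NKG2A and NKG2C, was present in both groups at 382 CPM against 235 CPM (log2 0.70). The matched cells thus held the partner chain and few UMIs of the chains it pairs with. Klrc and Klra genes have near-identical copies, and their single values are uncertain.

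Of 15 memory and effector transcription factors 11 could be compared, and 7 were at least 2-fold higher and none lower, 3 of the 7 having reached 20 CPM only in the Ccl5-high cells. They included Eomes and Tbx21. Id2, an inhibitor of E proteins, stood at 328 CPM against 59.1 CPM (log2 2.45), and Hopx, a homeodomain-only protein, at 172 CPM against 25.6 CPM (log2 2.70). Runx2 had a log2 difference of 2.38 and Ikzf3, which encodes Aiolos, of 1.10 (0.91 without the cells with a Gzma, Cx3cr1 or Zeb2 UMI). Zeb2, a repressor known from terminal effector cells, stood at 83.4 CPM (70.2 to 98.4) against 3 UMIs in all matched cells, a ratio of 209 (70.1 to 1027). Runx3, a factor of the CD8 lineage, stood at 273 CPM against 252 CPM, and Stat4, which carries the IL-12 signal, at 189 CPM against 118 CPM. Among the 17 quiescence and naive factors 0 were higher by 2-fold and 3 lower, Bach2, Lef1 and Sox4, with a median of −0.38. Of the 3, Sox4 reached 20 CPM only in the matched cells.

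Chemokine and cytokine genes other than Ccl5 were mostly too low to compare, with 4 of 12 past the filter, and the 2 that were at least 2-fold higher, Xcl1 and Ccl4, reached 20 CPM only in the Ccl5-high cells. Xcl1, a chemokine that attracts cross-presenting dendritic cells, stood at 56.6 CPM against 8.77 CPM (log2 2.56). Ccl4, another chemokine of T cells, stood at 34.6 CPM against 3 UMIs in all matched cells, a ratio of 86.7 (28.2 to 433). Ifng, which encodes interferon gamma, did not pass the filter at 13.1 CPM (8.21 to 19.8) against 0.797 CPM (0.293 to 1.74). Ltb, lymphotoxin beta, stood at 683 CPM against 714 CPM.

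Of 14 chemokine and sphingosine phosphate receptors 10 were compared, 5 of them at least 2-fold higher and 2 lower (Ccr7 and Ccr9). Of the 5, 3 reached 20 CPM only in the Ccl5-high cells, and of the 6 list genes that reached it in matched cells 2 were higher. Ccr2, a receptor for monocyte chemoattractant proteins, stood at 72.1 CPM against 9.96 CPM (log2 2.74). Cxcr6, a receptor of tissue-associated T cells, stood at 185 CPM against 37.5 CPM (log2 2.28). Cx3cr1, the fractalkine receptor of effector memory cells, stood at 71.5 CPM (59.3 to 85.5) against 1 UMI in all matched cells, a ratio of 538 (94.8 to 21428).

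Of 21 cytokine receptor genes 17 were compared, with 6 at least 2-fold higher and 2 lower. Of the 6, 2 reached 20 CPM only in the Ccl5-high cells. Il2rb was higher while Il2rg, the common gamma chain it pairs with, stood at 316 CPM against 318 CPM (log2 −0.01). Il7r, the IL-7 receptor chain that sustains resting T cells, stood at 658 CPM against 419 CPM (log2 0.65). Il2ra, the high-affinity IL-2 receptor chain of activated cells, did not pass the filter at 8.94 CPM against 5.32 CPM. Ifngr1 and Ifngr2 encode the paired chains of the interferon gamma receptor. Ifngr1 was at 199.6 CPM against 85.6 CPM (log2 1.21). Ifngr2 was at 2.98 CPM against 22.1 CPM (log2 −2.53), and since it reached 20 CPM only in the matched cells it had to stand lower. Il10ra, the IL-10 receptor chain, had a log2 difference of 1.87, and Il6st, the signalling chain gp130, of −1.38 (53.0 CPM against 139 CPM).

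Genes of the S100, annexin and galectin families are known to mark antigen-experienced T cells. In a list of these families and of cytoskeletal genes, 6 of the 13 compared were at least 2-fold higher and none lower. Of the 6, 2 reached 20 CPM only in the Ccl5-high cells. S100a6, a calcium-binding protein, stood at 1072 CPM (1023 to 1123) against 90.3 CPM (83.7 to 97.4), a log2 difference of 3.55. S100a4 stood at 422 CPM against 83.6 CPM, and Lgals1, which encodes galectin-1, at 804 CPM against 169 CPM. Lgals3, galectin-3, had a log2 difference of 4.11, Anxa2 of 2.52 and Ahnak, a large scaffold protein, of 2.47. Outside the lists, the naming rule picked Ctla2a, a cathepsin inhibitor, at 439.7 CPM (409 to 473) against 26.7 CPM (23.1 to 30.7), a log2 difference of 3.99. Ctla2a has a near-identical copy and its value is uncertain. It also picked Plek, which encodes pleckstrin (log2 4.58), Samd3 (4.43) and Slamf7, a receptor of cytotoxic lymphocytes (4.11). Without thinning, Slamf7 had a UMI in 21 of the 1935 matched cells. The rule picks the largest differences, so these values are a description.

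Of the 8 integrins compared, 3 were at least 2-fold higher, 1 of them having reached 20 CPM only in the Ccl5-high cells, and 1 was lower. Itga4, which pairs with Itgb1 to form VLA-4, stood at 388 CPM against 192 CPM (log2 1.01, and 0.44 without the cells with a Gzma, Cx3cr1 or Zeb2 UMI). Itgae, which encodes CD103, stood at 21.4 CPM against 47.6 CPM (log2 −1.11, and −1.66 to −0.86 across the alternative settings). Of 9 survival genes 2 were higher and none lower, and both reached 20 CPM only in the Ccl5-high cells. Bcl2l1, which encodes Bcl-xL, stood at 21.4 CPM against 4.52 CPM. Bcl2a1b had a log2 difference of 1.27, and of 0.92 to 1.61 across the alternative settings. Bcl2 itself, an anti-apoptotic protein known to be high in memory-phenotype cells, stood at 251 CPM against 182 CPM (log2 0.46). Among inhibitory receptors only Cd160 and 1 other gene passed the filter, and Cd160, which reached 20 CPM only in the Ccl5-high cells, stood at 92.3 CPM against 19.8 CPM (log2 2.17).

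Several lists held few or no genes 2-fold apart. Over all tested genes 3.46% were higher by as much and 1.17% lower, so a count of 0 in a list this short is near that share. Of the 14 genes of the T cell receptor complex and CD8, 0 were 2-fold apart and the median was −0.07. Cd3d stood at 870.4 CPM against 898 CPM, Cd8a at 449.8 CPM against 467 CPM and Cd8b1 at 1028 CPM against 1096 CPM. Of 5 genes that respond to T cell receptor signals, 0 were 2-fold apart. Cd5, a surface protein whose level follows the strength of self-recognition, stood at 149 CPM against 183 CPM (log2 −0.30), and Cd69, an early activation marker, at 69.1 CPM against 69.9 CPM. No gene was 2-fold apart among 17 interferon response genes, 12 genes of MHC class I presentation or 13 of fatty acid oxidation. Of 13 glycolysis genes, Pfkp (log2 1.21) and Slc2a3, the glucose transporter GLUT3, were at least 2-fold higher. Slc2a3 stood at 39.9 CPM against 19.4 CPM, past the filter only through the Ccl5-high cells. Its log2 difference ran from 0.76 to 1.31 across the alternative settings. Of 8 GIMAP genes, GTPases of lymphocyte survival, 1 was at least 2-fold higher (Gimap7, log2 1.18).

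Genes of the cell cycle were higher for 8 of the 13 compared and lower for none, and 4 of the 8 reached 20 CPM only in the Ccl5-high cells. Mki67, the proliferation antigen Ki-67, stood at 54.2 CPM against 20.5 CPM and Top2a, DNA topoisomerase II alpha, at 61.4 CPM against 29.9 CPM. Without the cells with a Gzma, Cx3cr1 or Zeb2 UMI their log2 differences were 0.73 and 0.79, both under 2-fold. Rrm2, which makes deoxynucleotides, had a log2 difference of 1.77, and Stmn1, which encodes stathmin, of 1.71. After every cell was thinned at random to 2000 UMIs, 7.38% of Ccl5-high cells (4.92 to 10.6) held a Mki67 or Top2a UMI against 1.83% of matched cells (1.24 to 2.58). Without thinning it was 37 of the 419 Ccl5-high cells (8.83%) and 3.00% of matched cells. Without the cells that held such a UMI, 6 genes of the list could still be compared, with a median of 0.31, beside 0.02 over all genes tested.

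**Figure D2:**
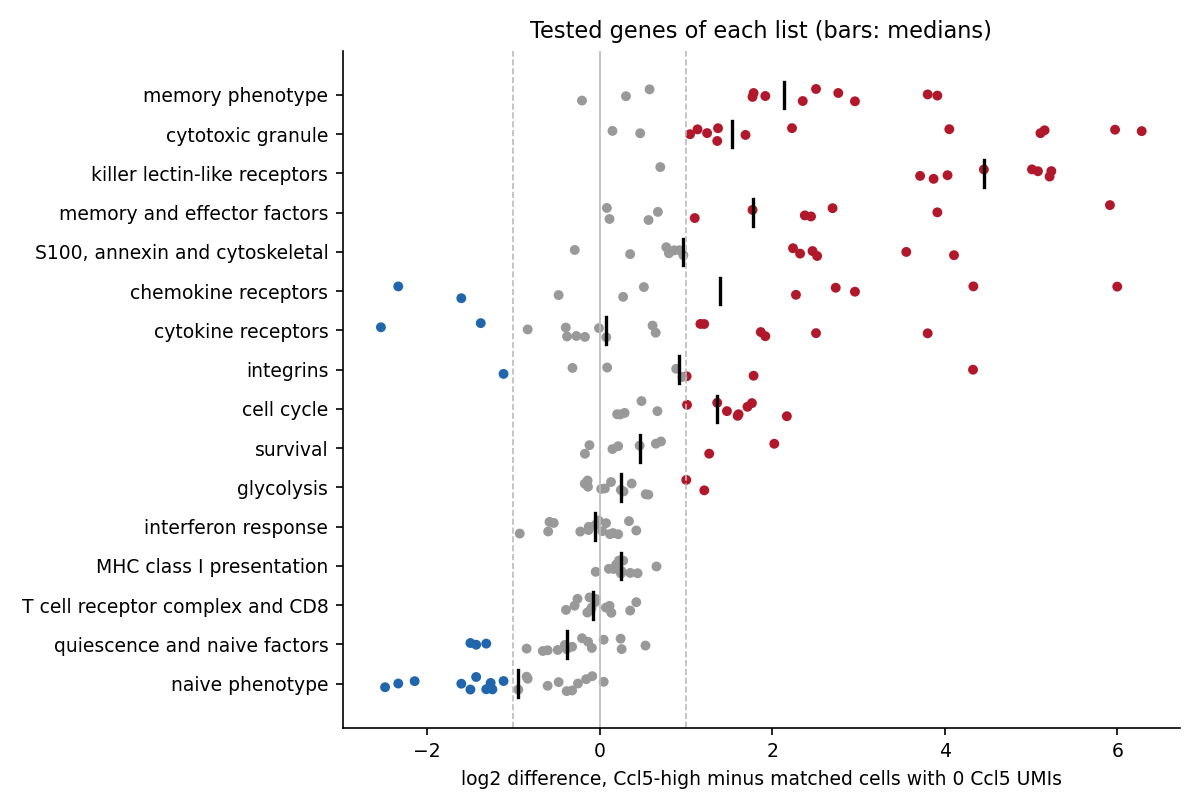
Log2 difference in CPM + 1 between Ccl5-high and depth-matched cells (horizontal axis) for every tested gene of 16 gene lists (rows of points), with the median of each list as a black bar and the 2-fold limits as dashed lines. Red points are higher and blue points lower by 2-fold or more. Cytotoxic and memory genes extend to the right, with medians of 1.53 and 2.14, as do killer lectin genes, most of which passed the filter in Ccl5-high cells alone, naive genes to the left (−0.94), and the T cell receptor list stays within the limits.

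Because summed levels do not show how many cells carry a transcript, the share of cells with a UMI was taken after thinning to 2000 UMIs per cell, which left 366 Ccl5-high and 1698 matched cells. Ly6c2 was seen in 66.4% of Ccl5-high cells (61.3 to 71.2) and 14.1% of matched cells (12.5 to 15.8). Il2rb was seen in 47.8% (42.6 to 53.1) against 10.6% (9.18 to 12.2), and Cxcr3 in 30.6% (25.9 to 35.6) against 4.06% (3.18 to 5.11). Cd44 was seen in 17.8% (14 to 22.1) against 3.30% (2.50 to 4.26), Eomes in 14.5% (11 to 18.5) against 3.30%, and Tbx21 in 13.1% (9.83 to 17.0) against 0.294%. The matched cells hold whatever these transcripts contribute as free RNA in the droplets, so their shares are an upper bound for that background. Over the 12 memory phenotype genes, the median share was 27.5% against 8.42%, and without thinning it was 41.6% against 13.7%.

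Naive phenotype genes were also seen in fewer cells rather than in none. Ccr7 was seen in 12.8% of Ccl5-high cells against 37.3% of matched cells, Lef1 in 28.7% against 58.8% and Dapl1 in 15.0% against 50.2%. Il7r was seen in 57.9% against 45.9%. S100a6, at 53.6% against 6.01%, and Ctla2a, at 47.0% against 3.06%, were spread over many of the Ccl5-high cells. Gzma was seen in 7.65% against 0.648%, and Cx3cr1 in 6.28% against 0%. Thinning left out shallow cells that held them: without thinning Gzma was seen in 12.2% of all Ccl5-high cells against 1.14% and Cx3cr1 in 15.0% against 0.0517%.

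Markers were then counted cell by cell. With 5 markers (Cd44, Il2rb, Eomes, Cxcr3 and Ly6c2) in thinned cells, 90.4% of Ccl5-high cells held a UMI of at least 1 and 61.2% (56.0 to 66.2) of at least 2, against 28.8% and 5.59% (4.55 to 6.80) of matched cells. Cells with 1 or 2 Ccl5 UMIs lay between them, with 23.6% at 2 or more markers. In 9.56% of the Ccl5-high cells 0 of the 5 markers were seen at this depth. The UMIs of all 12 memory phenotype genes summed to a median of 6 per Ccl5-high cell, 3 per cell with 1 or 2 Ccl5 UMIs and 2 per matched cell, and 53.0% of Ccl5-high against 6.65% of matched cells reached 6. The same relation was read the other way round: of 440 cells with at least 2 markers, 224 (50.9%) were Ccl5-high and 182 (41.4%) held 0 Ccl5 UMIs. Of 118 cells with at least 3 markers, 81 (68.6%, 59.5 to 76.9) were Ccl5-high and 22 (18.6%) held 0. Cells with several memory markers and no Ccl5 UMI were thus also present.

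**Figure D3:**
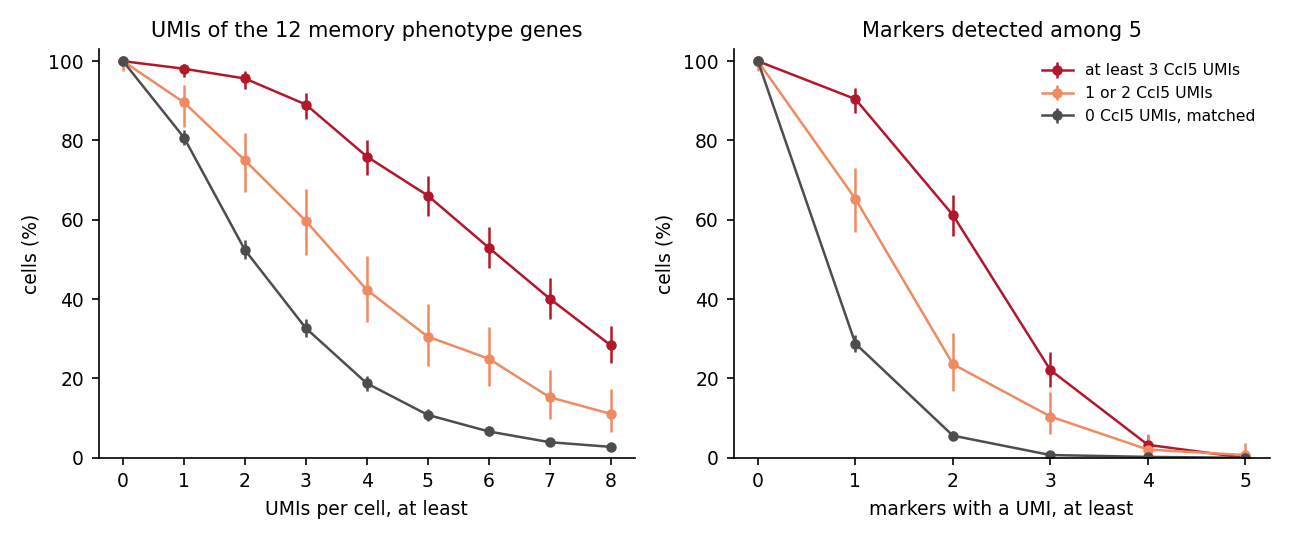
Share of cells (vertical axis, %) that reached at least a given number of UMIs of the 12 memory phenotype genes (left) or of 5 markers with a UMI (right), after thinning to 2000 UMIs, in Ccl5-high cells (red), cells with 1 or 2 Ccl5 UMIs (orange) and matched cells with 0 (grey). Bars are exact 95% intervals. The red curve lies above the grey one from 1 UMI to 8 and from 1 marker to 4. It stands at 53.0% against 6.65% for 6 UMIs and at 61.2% against 5.59% for 2 markers. The orange curve lies between them up to 4 markers. At 5 markers it lies above both, at 0.694% against 0%.

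The cells were next split by their number of Ccl5 UMIs to see how the other genes vary with it, over all cells of the library and without matching on depth. The classes of 0, 1, 2, 3 to 4, 5 to 9, 10 to 29 and 30 or more UMIs held 4208, 116, 34, 39, 60, 127 and 193 cells. Across them Cd44 stood at 15.9, 52.4, 80.0, 72.6, 79.7, 106 and 111 CPM. Cxcr3 stood at 17.4, 75.4, 159.9, 163, 164, 213 and 172 CPM. Most of the difference in these genes was thus reached at 2 Ccl5 UMIs. Tbx21 was higher step by step, from 1.86 CPM at 0 UMIs to 21.8 CPM at 2, 54.5 CPM at 5 to 9 and 66.1 CPM at 30 or more. Il2rb was highest in the class of 5 to 9 UMIs, at 432 CPM against 343 CPM at 30 or more. Dapl1 went the other way, at 680.0, 718, 523, 381, 189, 140.5 and 71.6 CPM.

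At the threshold itself, the 34 cells with 2 Ccl5 UMIs lay just outside the rule and the 24 cells with 3 just inside it. Il2rb stood at 284 CPM (202 to 388) outside and 145 CPM (83.1 to 236) inside, and Ly6c2 at 727 CPM (592 to 884) and 454 CPM (337 to 599). Cxcr3 stood at 159.9 CPM (100.2 to 242) and 145 CPM (83.1 to 236), and Cd44 at 80.0 CPM (39.9 to 143) and 72.7 CPM (31.4 to 143). The cells just outside the threshold were therefore no lower in these 4 genes than those just inside.

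Gzma, Cx3cr1 and Zeb2 behaved unlike the memory genes over these classes. Gzma stood at 36.5 CPM with 10 to 29 Ccl5 UMIs and at 717 CPM (657 to 781) with 30 or more. Cx3cr1 stood at 12.8 CPM and 154 CPM (127 to 185) in the same classes, and Zeb2 at 7.30 CPM and 182 CPM (152 to 215). Xcl1 was highest with 5 to 9 Ccl5 UMIs, at 105 CPM, and stood at 30.3 CPM with 30 or more.

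**Figure D4:**
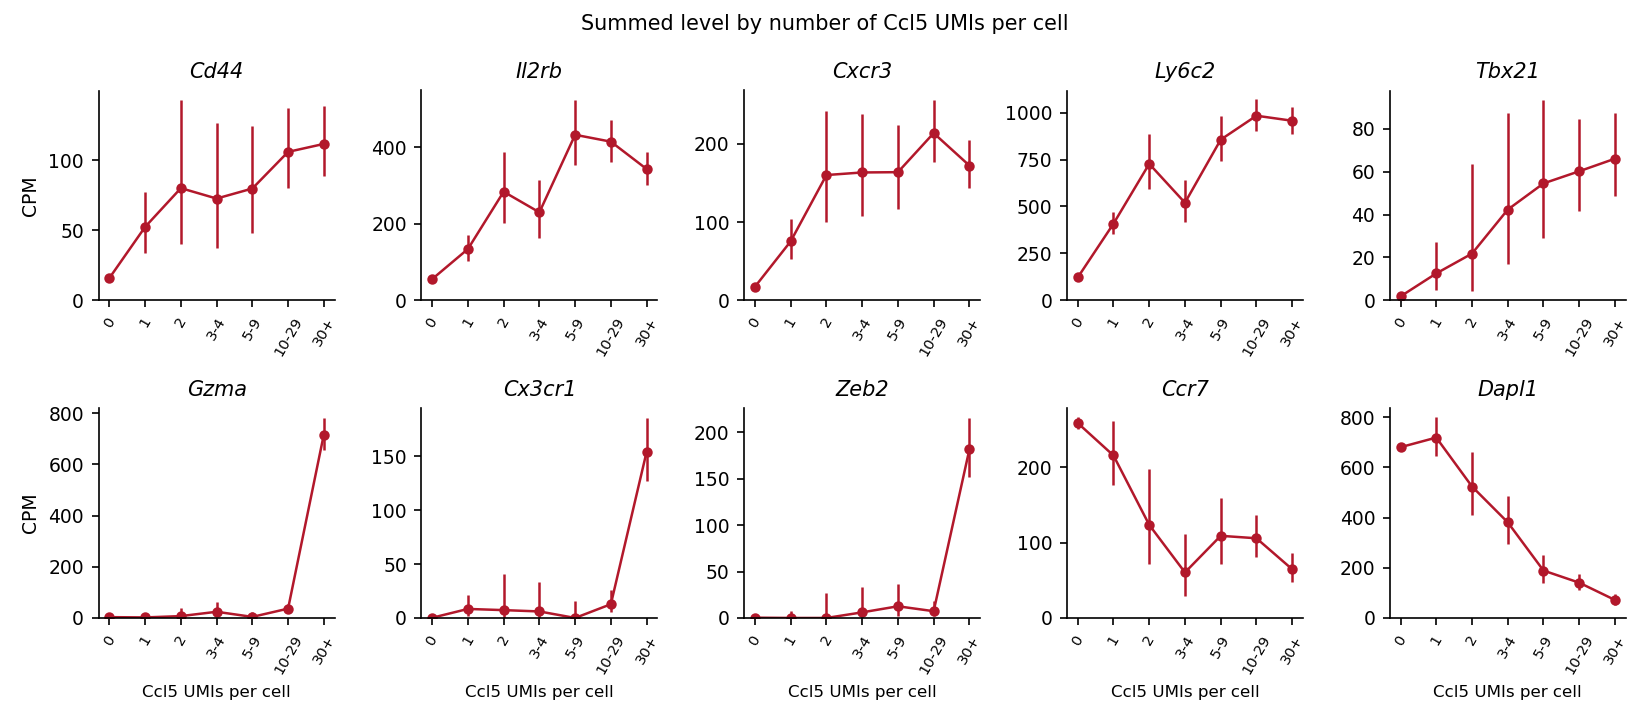
Summed level (CPM, linear axis from 0) of 10 genes in cells of the naive library grouped by their number of Ccl5 UMIs (horizontal axis), with exact Poisson 95% intervals. Cd44, Il2rb, Cxcr3, Ly6c2 and Tbx21 are higher already in the middle classes, whereas Gzma, Cx3cr1 and Zeb2 are low up to 29 Ccl5 UMIs and high with 30 or more, at 717, 154 and 182 CPM, and Ccr7 and Dapl1 are lower.

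The Ccl5-high cells were therefore divided by these 3 genes, a split chosen after their values were seen, so that nothing is supported by it. A UMI of Gzma, Cx3cr1 or Zeb2 was held by 92 of the 419 cells (22.0%) and by 25 of the 1935 matched cells. Gzma was seen in 51 of the Ccl5-high cells, Cx3cr1 in 63 and Zeb2 in 60, 52 cells held at least 2 of them and 30 held all 3. The 92 cells were shallower than the other 327, with a median of 2145.5 against 4054 UMIs, and held more Ccl5, with a median of 58 against 17 UMIs. They were also set against 71 depth-matched cells of the remainder (median 2348 UMIs), where 339 of 4146 genes (8.18%) were higher by 2-fold or more and 118 (2.85%) lower by as much. Here too, a gene that reached 20 CPM in a single group had to stand higher in that group.

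Genes named in the lists stood apart in both directions. Klrg1 stood at 156 CPM in the 92 cells against 5.81 CPM in the other 327, with a log2 difference of 4.53. Against the depth-matched cells, which held 1 Klrg1 UMI, it was 5.05. Gzmb stood at 289 CPM against 13.8 CPM (log2 4.29, depth-matched 4.57 from 3 UMIs), and S1pr5, a receptor for exit from tissues, at 76.4 CPM against 2.90 CPM. Klrg1, Gzmb and S1pr5 reached 20 CPM only in the 92 cells and had to stand higher there. Lgals1 stood at 2577 CPM against 417 CPM and S100a4 at 1269 CPM against 237 CPM. Itga4 stood at 1003 CPM against 253 CPM (log2 1.98, depth-matched 1.84). On the other side, Ccr7 stood at 29.9 CPM against 95.8 CPM (log2 −1.65). Il7r stood at 216 CPM against 755 CPM and Bcl2 at 53.1 CPM against 295 CPM. Xcl1 had 0 UMIs in the 92 cells, which allows up to 9.96 CPM (3 UMIs over the group), against 69.0 CPM in the others and 44.8 CPM in the depth-matched cells. Of the 12 memory phenotype genes, 2 were at least 2-fold apart against the depth-matched cells, Il18rap and Spn. Il18rap stood at 276 CPM against 82.0 CPM (depth-matched log2 1.73), Spn at 518 CPM against 206 CPM (257.7 CPM in the depth-matched cells), Itgb1 at 435 CPM against 216 CPM (0.60) and Il18r1 at 93.0 CPM against 211 CPM (−0.85). Cd44 stood at 113 CPM against 98.7 CPM and Ly6c2 at 704 CPM against 953 CPM. Mki67 stood at 156 CPM against 31.9 CPM (log2 2.25, depth-matched 1.28).

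The contrast with matched cells was also computed without these cells in either group, as a description, since Gzma is itself a granule gene. There the remaining 327 Ccl5-high cells had a median of 2.30 over the memory phenotype genes and of −0.73 over the naive phenotype genes, beside 0.01 over all genes tested. Klrk1 had a log2 difference of 4.84 without them and Gzmm of 6.23, while Gzmb stood at 2.95 in place of 5.16 and Klrg1 at 1.61 in place of 4.03.

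Markers of other lymphocytes were counted, since a CD8 T cell preparation can hold NK cells, gamma delta T cells and CD4 T cells. A UMI of Cd3d, Cd3e or Cd3g was seen in 418 of the 419 Ccl5-high cells. No UMI of Cd8a or Cd8b1 was seen in 82 of them (19.6%, 15.9 to 23.7) and in 22.3% of matched cells (20.4 to 24.2), so these shares were about equal. In Ccl5-high cells Cd8a was seen in 67.5%, Cd8b1 in 76.4% and either in 80.4%. In matched cells it was 65.6%, 76.4% and 77.7%, so cells without Cd8a mostly lacked Cd8b1 too. Whether the cells without a CD8 UMI lacked CD8 was not tested. Cd4 without CD8 was seen in 3 Ccl5-high cells (0.716%) and in 12 matched cells (0.620%). The 5 CD4 and regulatory T cell markers summed to 149 CPM against 119 CPM.

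The NK marker list of 8 genes summed to 382 CPM in Ccl5-high and 4.92 CPM in matched cells, most of it Gzma, and 59 cells (14.1%) held at least 2 of its UMIs against 5 matched cells (0.258%). Ncr1, the defining NK receptor NKp46, was at 0 in both groups. Tyrobp, the adaptor DAP12, stood at 5.96 CPM against 2 UMIs, Fcer1g, an adaptor of Fc and NK receptors, at 17.3 CPM against 3 UMIs, and Klrb1c, which encodes NK1.1, at 29.2 CPM against 1.06 CPM. The gamma delta list summed to 381 CPM against 282 CPM, and most of it was Trdc, at 240.1 CPM against 247 CPM. Trdv4, the V gene of a gamma delta receptor chain, stood at 25.6 CPM against 0.531 CPM, and Tcrg-C2 at 42.9 CPM against 6.11 CPM. At least 2 UMIs of the gamma delta list without Trdc were held by 64 Ccl5-high cells (15.3%) and 62 matched cells (3.20%), and at least 2 Trdv4 UMIs by 9 and 2. Zbtb16, the factor of innate-like T cells, stood at 3.57 CPM against 3 UMIs. Tcrg-C genes have near-identical copies and are uncertain.

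The B cell list summed to 275 CPM against 433 CPM, most of it Ighm, and at least 2 of its UMIs were held by 29.6% of Ccl5-high and 44.1% of matched cells. Its defining marker Ms4a1 was at 0 in both groups. The myeloid list summed to 76.3 CPM against 65.6 CPM, and the erythroid and platelet list to 0 in both. The T cell markers summed to 6033 CPM against 6589.5 CPM. A UMI of Trbv12-1 was seen in 3.34% of Ccl5-high cells and 8.32% of matched cells, and of any other beta chain V gene in 5.49% and 3.88%.

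The contrast was recomputed without the cells that carried such markers. Leaving out cells with at least 2 UMIs of the NK, gamma delta, B, myeloid or erythroid lists (Gzma, Ighm and Trdc not counted), or with Cd4 and no CD8, took away 122 Ccl5-high cells (29.1%) and 11.4% of the matched cells. The memory phenotype list then had a median of 2.34, beside 0.04 over all genes tested. With Trdc counted as well, 172 Ccl5-high cells (41.1%) were left out and the median was 2.23. The naive phenotype median was −0.90 and −0.86 in the same order. Among cells with a CD8 UMI alone, the memory phenotype median was 2.42, beside 0.03.

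In the other 20 libraries, which had been activated with beads, cells with at least 3 Ccl5 UMIs were both rarer and more common. After thinning to 2000 UMIs their share was 7.18% in the naive library (6.44 to 7.98), and in the others it was lowest, at 1.23% (0.933 to 1.6), on day 3 with IL-2v at 50 IU/mL, and highest, at 21.2% (20.1 to 22.2), on day 5 without cytokine. The intervals lay wholly above the naive one in 5 libraries and wholly below it in 13. Those above were day 5 without cytokine, day 10 with 5 IU/mL IL-2 (18.8%), both day 10 libraries with IL-15 (11.6% at 5 and 14.1% at 50 IU/mL) and day 5 with 5 IU/mL IL-15 (10.3%). The summed Ccl5 level was 885 CPM in the naive library and higher in 2 of the 20, day 5 without cytokine (1482 CPM) and day 10 with 5 IU/mL IL-15 (1042 CPM).

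The same contrast, Ccl5-high against depth-matched cells with 0 Ccl5 UMIs, was made within each of these libraries, with 60 to 1916 Ccl5-high cells. The median of the memory phenotype list was above 0 in 17 of the 20 and ran from −0.20 (day 5, IL-2 at 50 IU/mL) up to 1.09 (day 10, IL-15 at 5 IU/mL). In the naive library it was 2.14, above all of them. The median of the naive phenotype list was below 0 in 16 of the 20, from −0.67 to 0.43. The genes at least 2-fold higher in the naive contrast were above 0 for 55.5% to 94.8% of them in the other libraries, and in each library this share was above that of all measured genes (41.6% to 57.6%). Those at least 2-fold lower were less regular. They were below 0 for 37.5% (day 10, IL-2 at 50 IU/mL) to 90.9% (day 10, IL-15 at 5 IU/mL) of them. Activated cells that gain Ccl5 and cells that held it before cannot be told apart in these cultures.

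Some genes were above 0 in the Ccl5-high cells of every culture, in places by almost nothing. Il2rb had log2 differences from 0.0076 to 0.50 (median 0.31) over the 20 libraries, so it reached 2-fold in 0 of them, against 2.51 in the naive library. Ly6c2 ran from 0.06 to 1.44 (median 0.72), against 2.77. Gzma was above 0 in all 20 (lowest 0.09), by at least 2-fold in 16, and S100a6 in all 20 (lowest 0.10), by at least 2-fold in 10. Ccl4 was higher in all 18 libraries in which it could be compared, by at least 2-fold in 16, and Klrc1 in all 16, by at least 2-fold in 14. Igfbp4 was lower in all 19. Cd44 was less regular, above 0 in 15 of 20 with a median of 0.20, and Eomes was above 0 in 14 of 20.

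The level in the Ccl5-high cells of the naive library was also set beside the summed level of each whole activated library, in CPM. The totals of the cultures included Ccl5, whereas those of the Ccl5-high cells left it out. There Ccl5 took 9.53 of every 1000 UMIs, which slightly raises their CPM. Cd44 at 101 CPM (86.6 to 118) was above the highest culture, 95 CPM on day 5 with IL-2v at 50 IU/mL, by less than its counting error. Tbx21 (highest culture 24.1 CPM), Gzmm (12.2 CPM), Cx3cr1 (5.19 CPM) and Zeb2 (2.65 CPM) were above all 20. Cxcr3 at 183 CPM (164 to 205.2) was above the highest, 180.6 CPM, likewise by less than that error. Il2rb was above 12 of the 20, which ranged from 134 to 551 CPM. Gzmb was above 2 of the 20, which ranged from 2.23 to 7618 CPM. The Ccl5-high cells of the naive library thus held more of the T-box factor Tbx21 than any culture as a whole, and less Gzmb than 18 of them. Selected cells are here set beside cultures in which no cells were selected.

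**Figure D5:**
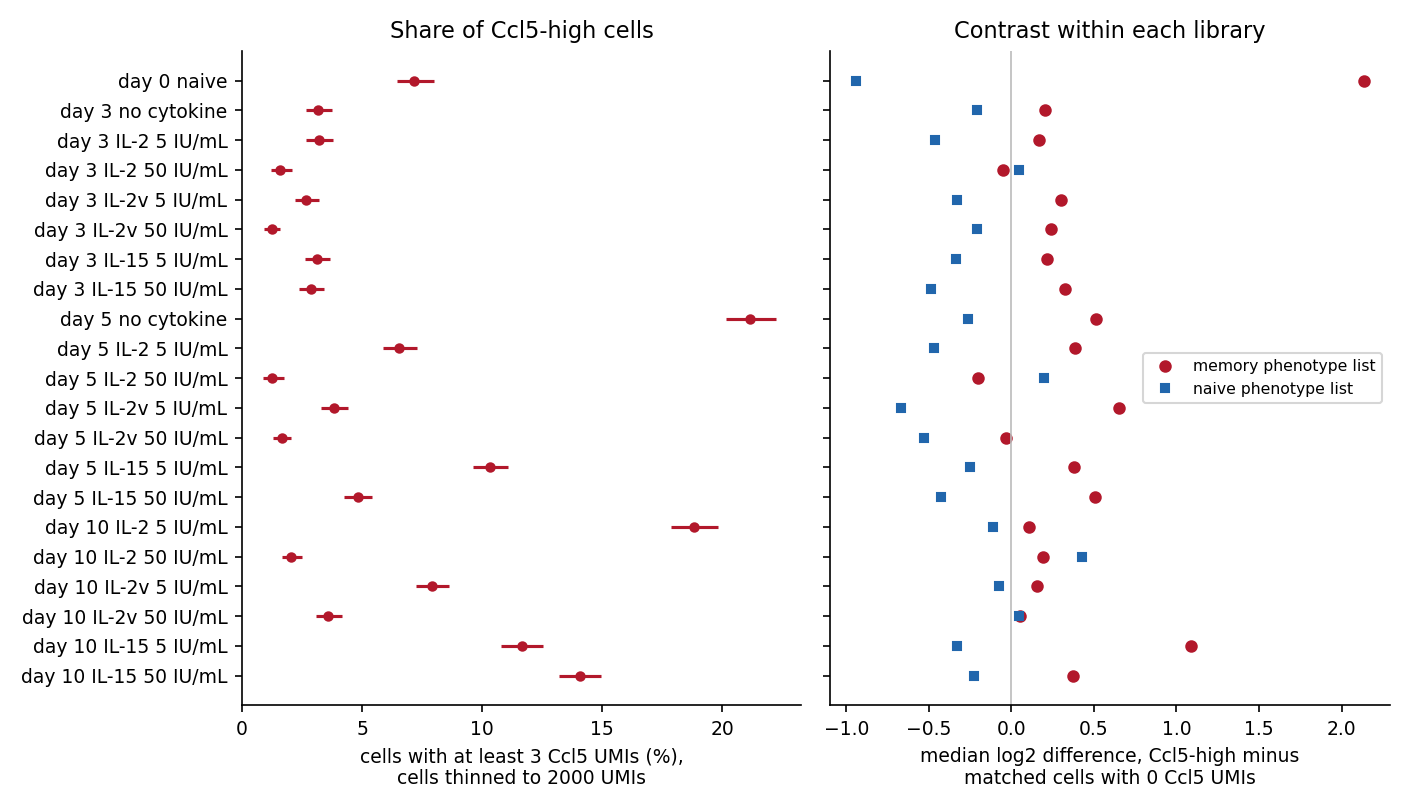
Left, share of cells with at least 3 Ccl5 UMIs (%, after thinning to 2000 UMIs, with exact 95% intervals) in each of the 21 libraries. Right, median log2 difference of the memory phenotype (red circles) and naive phenotype (blue squares) lists between these cells and depth-matched cells with 0 Ccl5 UMIs within each library. The share is highest on day 5 without cytokine (21.2%), and the naive library has the largest memory median (2.14) and the lowest naive median (−0.94).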

How the data were processed

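The data were single-cell RNA counts, 1 table of UMI counts per library, deposited by the authors for 17516 gene symbols. All values were whole numbers of at least 0. The submitters' processing notes name Cell Ranger, Seurat 4.0.1, Seurat 3.0.2 and the build mm10, with no role or order. The annotation, the use of strand and any removal of doublets before deposit are not given in the sources used here. The labels' extraction protocol describes a sort of CD44+ CD45.1+ CD8 T cells out of tumours and was taken not to apply to these cells. Had such a gate been used here, it would bear on the level of Cd44 and on the share of memory-phenotype cells.

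A cell was kept with 1000 or more UMIs, 500 or more genes and no more than 10% mitochondrial UMIs, which removed 2 of 106458 barcodes and 0 of the naive library. UMIs were summed per group and scaled to CPM, with a pseudocount of 1. No doublet caller was run, and an alternative left out cells above 2 times the median UMIs. Cells were thinned without replacement with a fixed seed of 11. Shares have exact Clopper-Pearson and levels exact Poisson 95% intervals. A count of 0 is read as up to 3 counts, which is 1.79 CPM or 0.716% of Ccl5-high cells. Named genes were the 15 highest and 15 lowest by difference among those with at least 50 CPM in the higher group, and any member of the lists. The members, lists and rules were chosen with earlier results of these data known. The computation, tested on simulated data, used Python 3.11.15, NumPy 2.4.6, pandas 2.3.3, SciPy 1.17.1 and Matplotlib 3.10.9.

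Results of some items are not reported here, though counts over lists include them. The alternatives were other filters on cells and genes, other thresholds on Ccl5, other matching, trimmed mean (TMM) scaling, totals without ribosomal protein and mitochondrial genes, means over single cells, thinning and a pseudocount of 10 CPM.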

Additional observations from a re-analysis of the deposited data

How the results depend on the processing

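The counts of genes depended most on the filter on low values. Without a CPM filter 807 genes were higher by 2-fold or more and 467 lower, and with at least 50 CPM in either group 107 and 24. Lower genes numbered 146 with totals without ribosomal protein and mitochondrial genes, 121 with cells thinned to 2000 UMIs and 27 with a pseudocount of 10 CPM. TMM scaling gave 185 higher and 85 lower, with a median of all tested genes of −0.03. The memory phenotype median was 1.85 with a pseudocount of 10 CPM, and the naive phenotype median was −1.18 when CPM values were averaged over cells. The share of Ccl5-high cells was 7.95% with at least 5 UMIs as the rule, 6.53% and 7.18% after thinning to 1000 and 2000 UMIs, 7.85% without cells with other lineage markers and 7.05% where Trdc was not counted among them. The median share of cells with a UMI over the memory phenotype genes was 16.1% after thinning to 1000 UMIs and 41.6% without thinning. Without cells with a Mki67 or Top2a UMI, Ccnb2 stood at −0.37 and Birc5 at −0.52, genes that this filter is built to lower. Of the 91 named genes at least 2-fold apart, recomputed as 1820 alternative values, these 2 reversed, 58 were under 2-fold with the same sign, and 5 were 0 because the alternative removes every cell with the gene. The alternatives without Trdc, without cells with a Gzma, Cx3cr1 or Zeb2 UMI and without cells lacking CD8 UMIs were chosen after seeing the data. No paired analysis was possible because each condition had 1 library. With 419 Ccl5-high cells and no replicate, the spread between mice is unknown, and genes under 20 CPM in both groups were left out of the counts.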
